A study of Mus musculus with 6 samples.

Results

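A set of 9 genes that regulate or mark mesoderm and heart was followed through 6 mouse RNA-Seq libraries: the transcription factors Isl1, Nkx2-5, Tbx20, Hand1, Foxc1, Foxf1a and Msx1, the cofactor Zfpm2 and the cardiac actin Actc1. They were found by symbol, and each of the 9 had 1 entry among the 21639 entries of the table. The study asked what the acidic patch of the histone variant H2A.Z does in embryonic stem cells (ESCs) and as they differentiate. It compared 3 ESC lines, each sampled as ESCs (Day0) and as embryoid bodies after LIF withdrawal (Day3), with 1 library for each of the 6 conditions.

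The H2AZ WT and H2AZ-AP3 lines carry a doxycycline-inducible H2A.Z-YFP transgene under a CMV promoter, delivered by lentivirus, together with a hairpin against endogenous H2A.Z, and both were sorted for YFP. In H2AZ-AP3 the transgene encodes H2A.Z with 3 acidic patch residues replaced. The H2AZ KD line carries the hairpin. The labels give the strain as V6.5, a 129SvJae and C57BL/6 cross, whereas the protocol names KH2 ESCs for the transgenic lines. The ESCs were grown on irradiated embryonic fibroblasts and were replated without these feeders before harvest. Since every condition is a single library, there is no error between cultures of a condition, and no test is given for a difference between 2 libraries. Only the difference between days, seen in 3 lines, was tested.

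The RNA values of the H2A.Z gene did not follow the knockdown label. All 3 lines carry the hairpin, which targets the 3′ UTR of endogenous H2A.Z. The study reported depletion of endogenous H2A.Z by qRT-PCR and western blot. H2afz, which encodes H2A.Z, was at 279 RPKM (reads per kilobase of transcript, scaled to mapped reads) in H2AZ WT, 343 RPKM in H2AZ KD and 304 RPKM in H2AZ-AP3 on Day0. On Day3 it was at 258, 236 and 394 RPKM in the same order. H2afv, the other H2A.Z gene, ranged from 52.2 to 63.3 RPKM. Reads of the H2A.Z-YFP transgene and of endogenous H2afz cannot be told apart in these values. The libraries are therefore called the libraries labelled H2AZ KD, and no direction of a knockdown is drawn from them. Of 9 ESC markers, Pou5f1, the pluripotency factor Oct4, stayed between 358 and 540 RPKM and Dppa5a was the highest by mean. From Day0 to Day3, 2 of the 9 were lower in H2AZ WT, 3 in H2AZ KD and 2 in H2AZ-AP3, and 0 were higher. Klf4, a pluripotency factor, went from 121 to 17.4 RPKM in H2AZ WT.

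In the embryo, heart muscle comes from mesoderm that leaves the primitive streak. BMP, Wnt and Nodal signals start this step, and Mesp1 marks the first cardiac progenitors. Isl1 marks progenitors of the second heart field, Nkx2-5, Tbx20 and Hand1 act in the forming heart tube, and Zfpm2 (FOG2) binds GATA4 and modulates its activity. Foxc1 acts in paraxial mesoderm and somites, Foxf1a in lateral plate and splanchnic mesoderm, and Msx1 downstream of BMP signals in limb and neural crest mesenchyme. Actc1 is a component of the thin filament of the sarcomere. In ESCs many developmental regulators of this kind have CpG-rich promoters that carry both an activating and a repressive histone mark. Those marks were not analysed here.

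The promoters of 6 of the 9 genes were matched in RefSeq (build GRCm38.p6, 250 bases before to 50 bases after the start). Foxf1a, Hand1 and Zfpm2 were not matched. Isl1 had 37 CpG dinucleotides in these 300 bases, Foxc1 32, Msx1 29 and Tbx20 26, against a median of 7 over 32851 promoters. Between 83.1% (Tbx20) and 94.4% (Isl1) of promoters held fewer. Nkx2-5 with 9 CpGs and Actc1 with 7 lay near the median. One 30-base stretch of each matched promoter is shown to let the CpG-rich and the CpG-poor promoters be compared. Capitals mark CpG in every line but that of Actc1, in which they mark a CArG box, the binding motif of serum response factor. All read 5′ to 3′ on the strand of the gene.
Isl1: ggCGCGgCGctCGcctgaCGtcccCGCGCG
Foxc1: CGCGggCGcCGggccCGggcagcCGgCGCG
Msx1: ccCGagCGcccccaggcCGagCGCGcctCG
Tbx20: ggCGctctctccctgCGcCGctCGgcccCG
Nkx2-5: ctatattaggtgaCGcagaactgccCGtCG
Actc1: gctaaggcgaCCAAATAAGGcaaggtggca

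Each stretch was found once in the NCBIM37 (mm9) assembly, the build of the expression table. They lie at chr13:117099941-117099970 on the minus strand (Isl1), chr13:31898295-31898324 on the plus strand (Foxc1), chr5:38215931-38215960 on the minus strand (Msx1), chr9:24578840-24578869 on the minus strand (Tbx20), chr17:26978533-26978562 on the minus strand (Nkx2-5) and chr2:113878639-113878668 on the minus strand (Actc1). The CpG lines are the stretch with the most CpG in the 250 bases before the start: 8 for Isl1 and Foxc1, 6 for Msx1, 5 for Tbx20 and 3 for Nkx2-5. The CArG box of Actc1 is the only one among the 6 promoters, and 1.63% of all promoters hold one. The Actc1 promoter also holds TATAAA, searched on both strands, which 13.6% of promoters hold. This match is not wholly within the 250 bases before the start used, which lies upstream of the start of the Actc1 entry. CCAAT, searched on both strands, is in 5 of the 6, all but Tbx20, and in 37.4% of all promoters. The match in Nkx2-5 is also not wholly within the 250 bases before the start. A match of letters is a description and not a binding site.

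**Figure D1:**
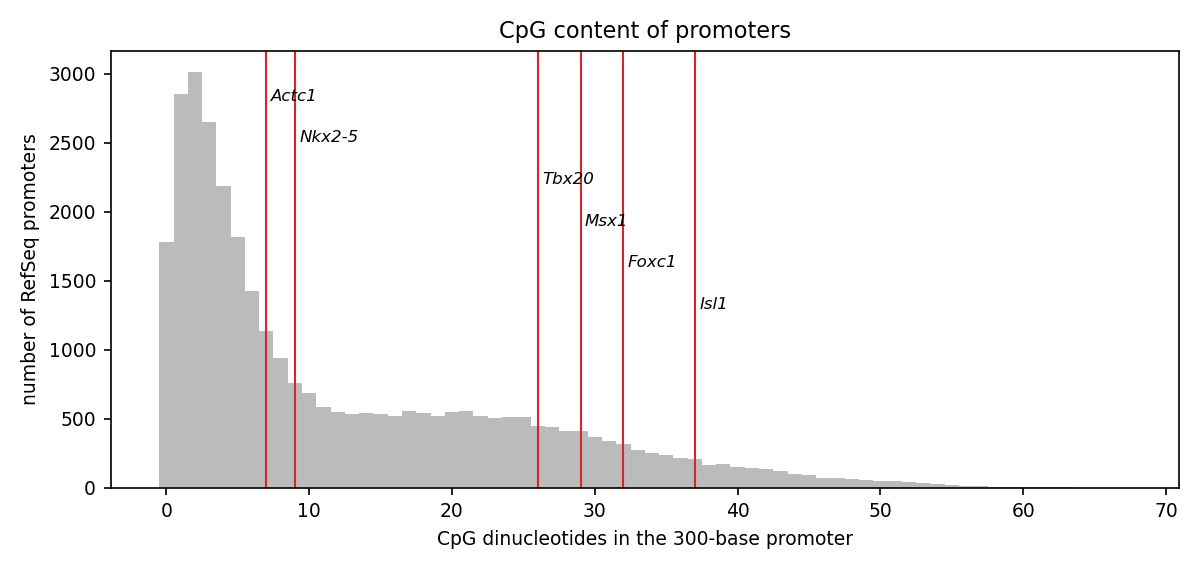
Number of RefSeq promoters (y axis) by their count of CpG dinucleotides in 300 bases (x axis), with red lines at the 6 matched genes. Actc1 (7) and Nkx2-5 (9) lie in the bulk of promoters, and Tbx20 (26), Msx1 (29), Foxc1 (32) and Isl1 (37) in the upper tail.

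All 9 genes were expressed at low levels. Their median was 0.829 RPKM in H2AZ WT, 0.636 RPKM in H2AZ KD and 0.613 RPKM in H2AZ-AP3 on Day0, and 0.319, 0.239 and 0.292 RPKM in the same order on Day3. The median over all entries lay between 1.59 and 1.72 RPKM in the 6 libraries. No gene passed 1 RPKM in either library labelled H2AZ KD or in H2AZ-AP3 on Day3. The genes above 1 RPKM were Foxc1 and Hand1 in H2AZ WT on Day0, Foxc1, Tbx20 and Foxf1a in H2AZ-AP3 on Day0, and Msx1 in H2AZ WT on Day3. In bulk RNA, fewer cells that express a gene and less RNA in each cell cannot be told apart.

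**Figure D2:**
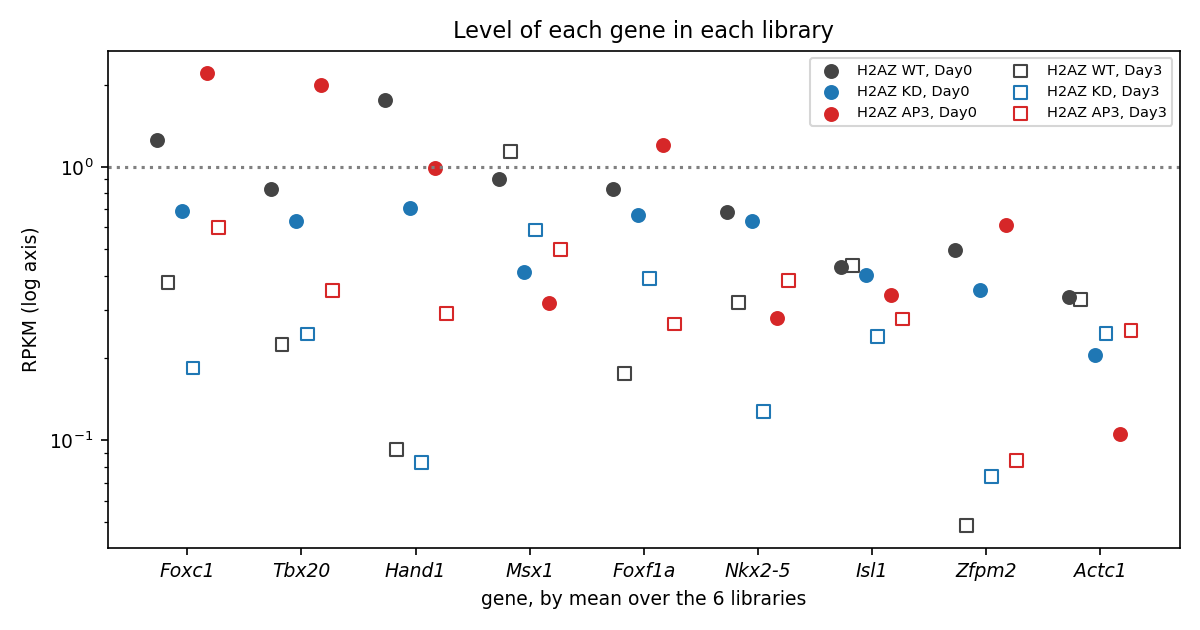
RPKM on a log axis (y) of the 9 genes (x, by their mean) in each of the 6 libraries, 1 point per library, with Day0 as filled circles and Day3 as open squares; the dotted line is at 1 RPKM. Foxc1, Tbx20, Hand1, Foxf1a and Zfpm2 have all 3 Day0 points above all 3 Day3 points. The share of all entries that separate in this way was not counted.

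Of the heart factors, Hand1, a basic helix-loop-helix factor of the heart and of trophoblast, covered the widest range as a fold. Its single entry spans chr11:57642215-57645649 on the minus strand, and it was at 1.75 RPKM in H2AZ WT, 0.704 in H2AZ KD and 0.994 in H2AZ-AP3 on Day0, and at 0.0922, 0.0827 and 0.292 RPKM in the same order on Day3. H2AZ WT ESCs were highest, and both the H2AZ WT and the H2AZ KD embryoid bodies were below 0.1 RPKM. Tbx20, a T-box factor (chr9:24527648-24578746, minus strand), was at 0.83, 0.636 and 2.00 RPKM on Day0 and 0.223, 0.245 and 0.352 RPKM on Day3. H2AZ-AP3 ESCs were highest, and all 3 Day3 libraries lay below all 3 Day0 libraries.

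Nkx2-5, a homeobox factor of cardiac progenitors (chr17:26975610-26978510, minus strand), was at 0.681, 0.636 and 0.28 RPKM on Day0 and 0.319, 0.127 and 0.385 RPKM on Day3. It was the one heart factor for which the H2AZ-AP3 library was lowest on Day0 and highest on Day3. Isl1, a LIM homeobox factor (chr13:117088478-117099896, minus strand), had the narrowest range of the 9 as a fold, at 0.429, 0.403 and 0.34 RPKM on Day0 and 0.437, 0.239 and 0.278 RPKM on Day3. Zfpm2 (chr15:40486588-40936138, plus strand) was at 0.495, 0.354 and 0.613 RPKM on Day0 and 0.0488, 0.0735 and 0.084 RPKM on Day3. Its Day0 and Day3 libraries did not overlap, as for Tbx20, and the share of all entries that do the same was not counted.

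Among the mesoderm factors, Foxc1, a gene of 1 exon (chr13:31898515-31902504, plus strand), had the highest mean of the 9, at 1.26, 0.69 and 2.20 RPKM on Day0 and 0.377, 0.184 and 0.6 RPKM on Day3. On both days its order was H2AZ-AP3, H2AZ WT, H2AZ KD. Foxf1a (chr8:123608374-123610779, plus strand) was at 0.829, 0.669 and 1.20 RPKM on Day0 and 0.175, 0.391 and 0.266 RPKM on Day3. The transcript of the GENCODE annotation that matches its entry has 1062 bases, 1059 of them coding and the rest the length of a stop codon. Msx1 (chr5:38211730-38215824, minus strand) was at 0.904, 0.411 and 0.318 RPKM on Day0 and 1.14, 0.587 and 0.5 RPKM on Day3. H2AZ WT was highest on both days.

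Actc1 (chr2:113873025-113878547, minus strand) was the lowest of the 9 in its mean over the 6 libraries and in each Day0 library, at 0.334, 0.205 and 0.105 RPKM on Day0 and 0.327, 0.245 and 0.252 RPKM on Day3. Several of its paralogs were far higher: Actb ranged from 714 to 1054 RPKM, Actg1 from 561 to 842 RPKM and Acta1 from 10.7 to 18.8 RPKM. Actg2 was lower in its mean, at 0.121 against 0.245 RPKM. Reads were allowed to match up to 20 locations, so reads of Actc1 may be split among these near-identical genes, and its values are uncertain.

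The clearest pattern was between days: the levels were mostly lower in embryoid bodies than in ESCs. A gene is called changed here when its ratio of RPKM + 0.001 passes 1.5-fold. From Day0 to Day3, 6 of the 9 genes were lower and 0 higher in H2AZ WT, where 20.1% of 17756 entries were lower and 17.2% higher. In the line labelled H2AZ KD, 7 were lower and 0 higher, against 19.8% and 17.1% of entries. In H2AZ-AP3, 5 were lower and 2 higher, against 19.9% and 18% of entries. Among entries with a mean between those of Actc1 and Foxc1, at 0.245 and 0.884 RPKM, 32.7%, 35.4% and 33.9% were lower in the 3 lines. In the same order, 23.4%, 22.3% and 23.8% of them were higher. The median log2 ratio of the 9 genes was -1.73 in H2AZ WT, -1.38 in H2AZ KD and -1.77 in H2AZ-AP3, while the median over all entries lay between 0.00 and 0.03. At a pseudocount of 1 RPKM, 3 genes were lower in H2AZ WT, 1 in H2AZ KD and 4 in H2AZ-AP3.

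The difference between days was tested over the 3 lines with limma, with the line as a block, on log2(RPKM + 0.001) over 18688 entries. Foxc1 was lower on Day3 by a log2 ratio of -1.84 ± 0.32 (SE, 3 lines; limma adjusted p = 0.0267), Hand1 by -3.02 ± 0.56 (adjusted p = 0.0305), Zfpm2 by -2.81 ± 0.55 (adjusted p = 0.0365) and Tbx20 by -1.92 ± 0.39 (adjusted p = 0.0405). Foxf1a, at -1.73 ± 0.45, did not pass (limma adjusted p = 0.0751), nor did Nkx2-5, Isl1, Msx1 and Actc1 (limma adjusted p from 0.386 to 0.685). Thus 4 of the 9 genes were lower and 0 higher at an adjusted p under 0.05, where 3.36% of entries were lower and 2.56% higher. The lines differ in genotype and stand in for replicates, with 2 residual degrees of freedom. Only Zfpm2 passed with a pseudocount of 1 RPKM. Without H2AZ WT, H2AZ KD or H2AZ-AP3 in turn, 0 of the 9 genes and 0 of all entries passed. These fits have 1 residual degree of freedom, and since no entry passed they say nothing about the stability of the calls. The log2 ratios in them were -1.89, -1.80 and -1.82 for Foxc1, -2.55, -3.08 and -2.78 for Zfpm2, -1.94, -2.20 and -1.63 for Tbx20 and -2.42, -3 and -3.65 for Hand1, the most variable of these 4.

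Tbx20, Hand1, Zfpm2, Foxc1 and Foxf1a were more than 1.5-fold lower on Day3 in each of the 3 lines. The share of all entries that were lower in all 3 lines was not counted. Hand1 was 18.8-fold lower in H2AZ WT, 8.43-fold lower in H2AZ KD and 3.40-fold lower in H2AZ-AP3. Zfpm2 was 9.96-fold, 4.77-fold and 7.23-fold lower. Tbx20 was 3.71-fold, 2.59-fold and 5.66-fold lower, and Foxc1 3.33-fold, 3.74-fold and 3.66-fold lower. Foxf1a was 4.71-fold lower in H2AZ WT, 1.71-fold in H2AZ KD and 4.50-fold in H2AZ-AP3. The folds of Hand1 rest on Day3 levels of 0.0922, 0.0827 and 0.292 RPKM, and at a pseudocount of 1 RPKM its log2 ratios were -1.33, -0.65 and -0.63, beside -0.71, -0.51 and -0.999 for Foxc1.

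The other 4 genes did not pass 1.5-fold in every line. Nkx2-5 was 2.13-fold lower in H2AZ WT and 4.96-fold lower in H2AZ KD, with a log2 ratio of 0.46 in H2AZ-AP3, within the threshold. Isl1 was 1.68-fold lower in H2AZ KD, with log2 ratios of 0.03 in H2AZ WT and -0.29 in H2AZ-AP3. Msx1 was 1.57-fold higher and Actc1 2.37-fold higher on Day3 in H2AZ-AP3. In the other lines Msx1 had log2 ratios of 0.33 and 0.51 and Actc1 of -0.03 and 0.26. The differences between lines were not tested.

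Fibroblast markers moved with the day in the same direction, and their part in these differences was not tested. Of 12 embryonic fibroblast markers, 8 were lower and 1 higher on Day3 in H2AZ WT, 10 lower and 1 higher in H2AZ KD, and 10 lower and 1 higher in H2AZ-AP3. Their summed level was 160, 133 and 206 RPKM in H2AZ WT, H2AZ KD and H2AZ-AP3 on Day0 and 110, 81.2 and 91.3 RPKM on Day3. Most of the sum is Fn1, fibronectin, which ran from 71.5 to 145 RPKM and which other cell types make too. Col1a2, a chain of type I collagen, was at 12.9, 11.8 and 22.5 RPKM on Day0 and 1.3, 0.591 and 2.36 RPKM on Day3. Col1a1, the other chain, was at 9.76, 7.42 and 15.5 RPKM on Day0 and 1.54, 0.923 and 2.57 RPKM on Day3. Thy1 went the other way in all 3 lines, from 1.74 to 9.19 RPKM in H2AZ WT, from 2.42 to 5.48 RPKM in H2AZ KD and from 1.74 to 3.56 RPKM in H2AZ-AP3. Between 0 and 2 markers were listed at 0 in a library: Lum in 3 libraries and Postn in 4.

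**Figure D3:**
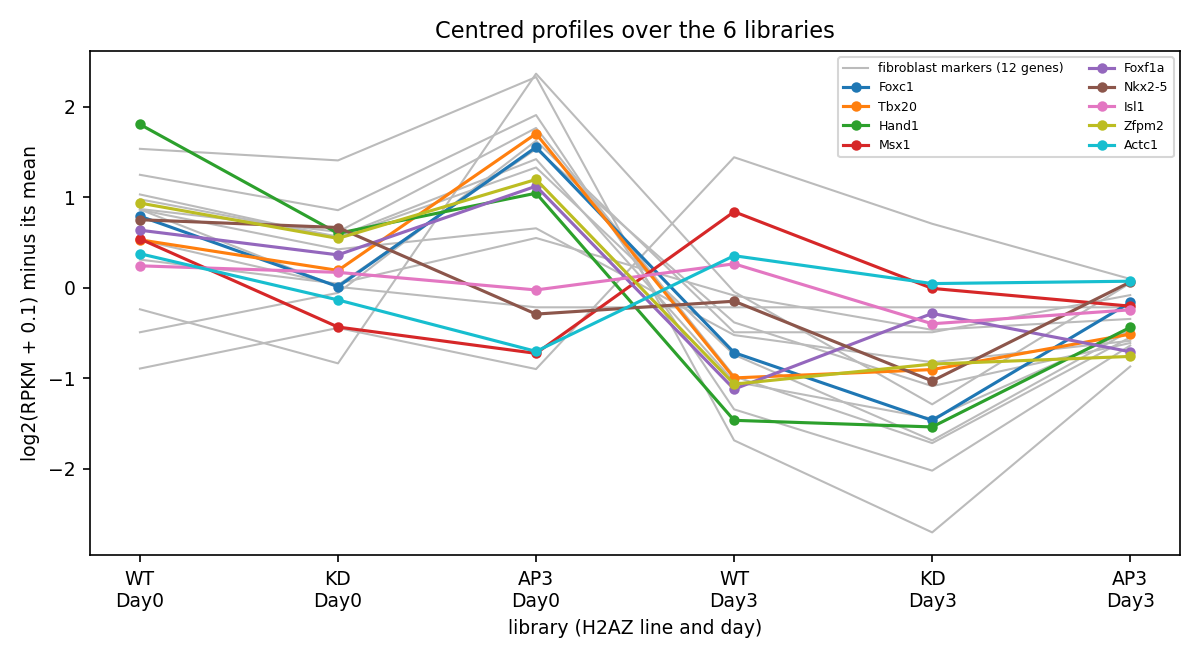
The log2(RPKM + 0.1) of each gene minus its mean over the 6 libraries (y) in each library (x), for the 9 genes in colour and the 12 fibroblast markers in grey; lines join 1 gene's points and carry no order. Foxc1, Tbx20, Foxf1a and Zfpm2 peak in H2AZ-AP3 on Day0, as do the fibroblast markers other than Thy1, Postn and Twist2. Msx1 and Actc1 are lowest there.

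The other groups of the cardiac programme did not move as one. Of 23 cardiac transcription factors, 6 were higher and 6 lower on Day3 in H2AZ WT, 5 and 7 in H2AZ KD, and 6 and 7 in H2AZ-AP3, with median log2 ratios of -0.30, -0.07 and -0.11. Hopx, Gata4 and Gata6 had the largest ratios in H2AZ WT at a pseudocount of 1 RPKM. Gata4 went from 3.24 to 13.7 RPKM there, from 4.94 to 23.2 RPKM in H2AZ KD and from 12.1 to 13.3 RPKM in H2AZ-AP3. GATA4 and GATA6 act in heart and also in extraembryonic endoderm, and both are on the list for that tissue. Of its 11 markers, 11 were higher on Day3 in H2AZ WT, 11 in H2AZ KD and 8 in H2AZ-AP3, and their summed level went from 19.2 to 97.0, from 24.6 to 244 and from 55.8 to 128 RPKM.

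Of 22 sarcomere and cardiomyocyte genes, 5 were higher and 8 lower on Day3 in H2AZ WT, 4 and 8 in H2AZ KD, and 7 and 8 in H2AZ-AP3. Myl3, a myosin light chain, had the largest ratio in H2AZ WT at a pseudocount of 1 RPKM, from 0.63 to 5.31 RPKM, and Nppb, which encodes a natriuretic peptide, went from 1.57 to 0.162 RPKM. Atp2a2, the calcium pump SERCA2, which is also used outside muscle, was the highest of the group, at 82.6 to 105 RPKM. Of 21 regulators of lateral plate and paraxial mesoderm, 3 were higher and 8 lower in H2AZ WT, 3 and 11 in H2AZ KD, and 5 and 10 in H2AZ-AP3. Prrx1, a homeobox gene of limb mesenchyme, went from 4.86 to 0.691 RPKM in H2AZ WT, from 2.89 to 0.217 RPKM in H2AZ KD and from 8.26 to 1.07 RPKM in H2AZ-AP3.

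The markers that precede heart formation were low. The 10 primitive streak markers summed to between 2.93 and 5.55 RPKM in the 6 libraries, and Mesp1 was at most 0.0909 RPKM and listed at 0 in 3 libraries. Of these markers, 5 were higher and 0 lower on Day3 in H2AZ WT, 3 and 1 in H2AZ KD, and 5 and 2 in H2AZ-AP3. Among 13 inducing signals, 5 were higher and 2 lower in H2AZ WT, 5 and 3 in H2AZ KD, and 7 and 5 in H2AZ-AP3. Bmp4 went from 9.23 to 2.47 RPKM, from 9.24 to 1.94 RPKM and from 12.6 to 2.95 RPKM, and Dkk1, a Wnt inhibitor, from 0.734 to 3.62, from 1.82 to 7.03 and from 1.28 to 3.48 RPKM. The 9 trophoblast markers analysed, relevant to Hand1, summed to between 4.25 and 7.37 RPKM, and Elf5 was listed at 0 in all 6 libraries.

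**Figure D4:**
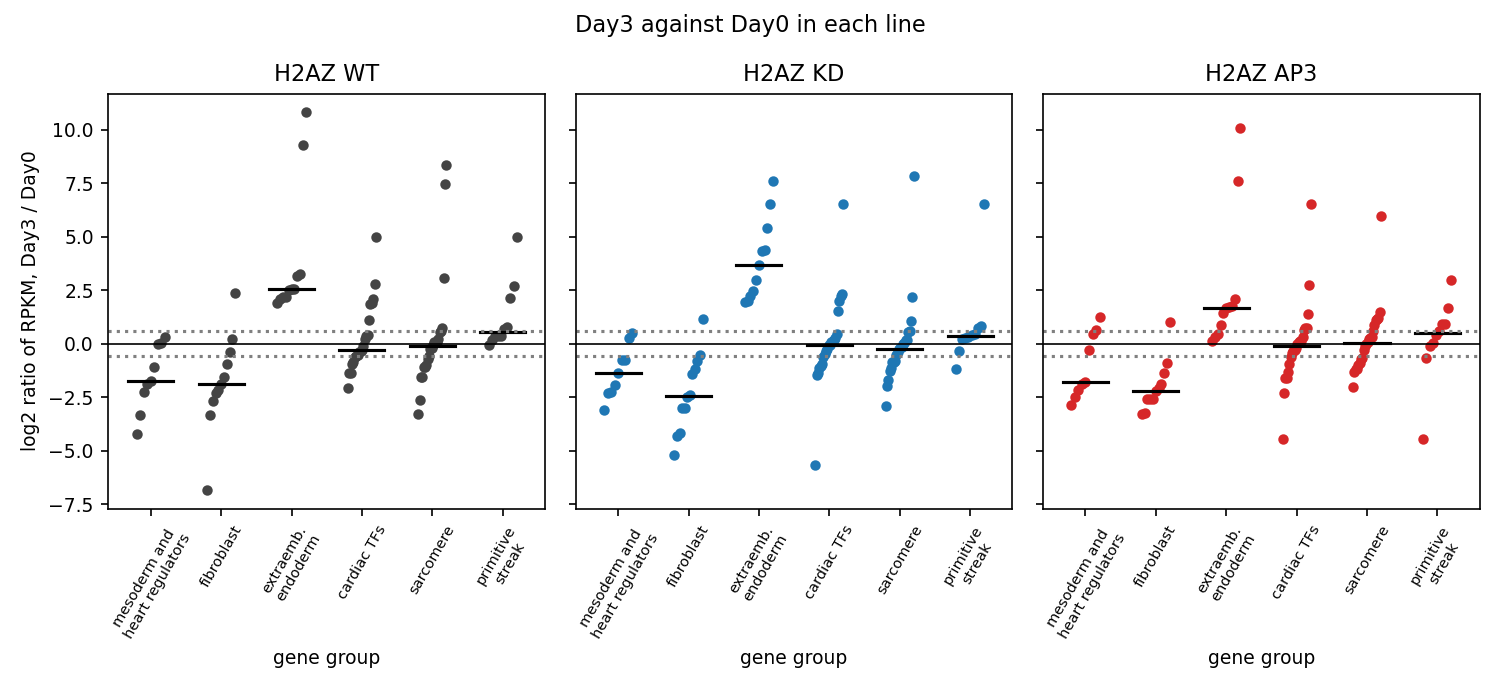
Log2 ratio of RPKM on Day3 to Day0 (y) for each gene of 6 groups (x), 1 panel per line; each point is a gene, black bars are medians, and dotted lines mark 1.5-fold. The 9 mesoderm and heart regulators have medians of -1.73, -1.38 and -1.77, and the extraembryonic endoderm markers of 2.57, 3.67 and 1.65; some of the points beyond 5 are genes listed at 0 in 1 of the 2 libraries.

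In H2AZ-AP3 ESCs the genes went both ways relative to H2AZ WT. Tbx20 was 2.40-fold higher and Foxc1 1.75-fold higher, and Actc1 was 3.15-fold, Msx1 2.84-fold, Nkx2-5 2.43-fold and Hand1 1.76-fold lower. These are 2 higher and 4 lower of 9, where 13.5% of entries were higher and 17% lower, or 21.2% and 27.9% of entries of like mean level. A pseudocount of 1 RPKM left 1 higher and 0 lower. Foxf1a, at 1.45-fold, lay just inside the threshold, and Zfpm2 and Isl1 had log2 ratios of 0.31 and -0.34. In Tbx20, Foxc1, Foxf1a and Zfpm2, H2AZ-AP3 ESCs were the highest of the 6 libraries. The fibroblast markers were again higher in the same library, with 6 of 12 higher and 1 lower, and Dcn, Loxl1, Col1a2 and Col1a1 had log2 ratios of 2.93, 1.02, 0.80 and 0.66. Their part was not tested.

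Related groups in the same comparison were divided as well. Of the 23 cardiac transcription factors, 9 were higher and 5 lower. At a pseudocount of 1 RPKM the largest were Gata4, Gata6 and Hopx, whose log2 ratios at 0.001 were 1.90, 1.73 and 1.79, and 8 of the 11 extraembryonic endoderm markers were higher and 0 lower. Of the 21 lateral plate and paraxial regulators, 9 were higher and 3 lower. Eya1, a transcriptional cofactor, had a log2 ratio of 2.39, and Osr2 of -1.64. Of the sarcomere genes 3 were higher and 7 lower, among them Myh7 at -1.60 and Actn2 at -1.08.

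On Day3, H2AZ-AP3 embryoid bodies had more genes above H2AZ WT: 5 were higher and 2 lower, against 12.8% and 14.4% of entries, or 19.5% and 27.1% of entries of like level. Hand1 was 3.14-fold higher, at 0.292 against 0.0922 RPKM. Zfpm2 was 1.70-fold, Foxc1 1.59-fold, Tbx20 1.57-fold and Foxf1a 1.52-fold higher, all close to the threshold. Msx1 was 2.27-fold and Isl1 1.57-fold lower. With a pseudocount of 0.1 RPKM, 1 gene was higher and 1 lower, and with 1 RPKM 0 were higher and 0 lower. Of the fibroblast markers 4 were higher and 1 lower, and of the extraembryonic endoderm markers 2 were higher and 2 lower.

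The library labelled H2AZ KD was below H2AZ WT for all 9 genes in ESCs. Over all entries the median log2 ratio was -0.04, and it was -0.06 for entries of like level. The share of all entries below H2AZ WT at no threshold was not counted. Hand1 was 2.49-fold, Msx1 2.20-fold, Foxc1 1.82-fold and Actc1 1.63-fold lower, and the other 5 had log2 ratios between -0.48 and -0.09. These are 4 lower and 0 higher, against 13% and 10.9% of entries, or 21% and 16.4% of entries of like level. Fibroblast markers were 2 lower and 1 higher of 12, with a median log2 ratio of -0.42, and extraembryonic endoderm markers 5 higher and 0 lower of 11, with a median of 0.56. On Day3, Nkx2-5 was 2.49-fold, Foxc1 2.05-fold, Msx1 1.93-fold and Isl1 1.82-fold lower, and Foxf1a was 2.23-fold higher. These 4 lower and 1 higher stand against 13.9% and 11.6% of entries, or 26.6% and 19.2% of entries of like level. Zfpm2, at 1.49-fold, lay just inside the threshold. Fibroblast markers were 7 lower and 0 higher. Of the 11 extraembryonic endoderm markers 9 were higher and 0 lower, with a median log2 ratio of 1.25 and sums of 244 against 97.0 RPKM. Their part was not tested. A pseudocount of 1 RPKM left 1 of the 9 genes lower on Day0 and 0 changed on Day3.

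**Figure D5:**
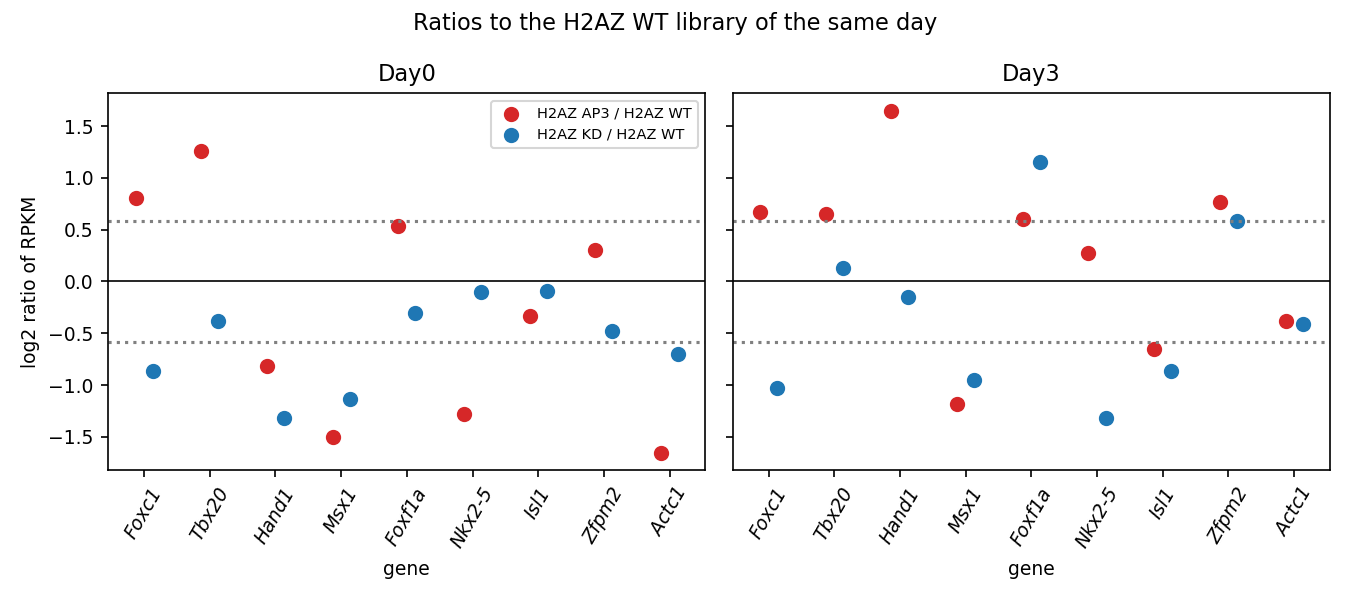
Log2 ratio of RPKM to the H2AZ WT library of the same day (y) for the 9 genes (x), for H2AZ-AP3 in red and H2AZ KD in blue, with dotted lines at 1.5-fold; each point rests on 2 libraries. Msx1 is below the lower line in all 4 comparisons, and Foxc1 is above the upper line in H2AZ-AP3 and below the lower line in H2AZ KD on both days.

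The comparisons with H2AZ WT share that library, so a low or high value in it enters both. Msx1 was lower in H2AZ-AP3 and in H2AZ KD on both days, and it differed by log2 ratios of -0.37 on Day0 and -0.23 on Day3 between H2AZ-AP3 and H2AZ KD. Set directly against the library labelled H2AZ KD, H2AZ-AP3 ESCs had Foxc1 3.18-fold, Tbx20 3.14-fold, Foxf1a 1.79-fold and Zfpm2 1.73-fold higher, and Nkx2-5 2.27-fold and Actc1 1.93-fold lower. That is 4 higher and 2 lower, where 16.5% of entries were higher and 16.5% lower, or 24.9% and 27.5% of entries of like level. On Day3, Hand1 was 3.5-fold, Foxc1 3.25-fold and Nkx2-5 3-fold higher and 0 genes were lower, against 14.2% and 13.7% of entries, or 24.2% and 23.5% of entries of like level. In these comparisons 8 and 7 of the 12 fibroblast markers were higher and 1 was lower in each. Of the extraembryonic endoderm markers 7 were higher and 2 lower on Day0, and 0 higher and 9 lower on Day3. With a pseudocount of 1 RPKM, 2 of the 9 genes were higher and 0 lower on Day0 and 0 higher on Day3.

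The paralogs of the 9 genes were given from a list of 19. In H2AZ-AP3 ESCs against H2AZ WT, 2 were higher and 4 lower. Foxc2, the closest relative of Foxc1, was at 1.26, 1.17 and 0.954 RPKM on Day0 and 0.297, 0.0843 and 0.718 RPKM on Day3, so that it did not share the Day0 peak of Foxc1 in H2AZ-AP3. Foxf2 was at 0.516, 0.32 and 0.508 RPKM on Day0 and 0.593, 1.28 and 0.771 RPKM on Day3, with Day3 to Day0 ratios past 1.5-fold upward in H2AZ KD and H2AZ-AP3, whereas Foxf1a was lower in each line. Zfpm1 was between 3.17 and 4.97 RPKM in all 6 libraries, and Msx2 between 1.09 and 1.60 RPKM.

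Profiles over the 6 libraries were compared with those of 11842 other entries whose mean reached 1 RPKM, by the Euclidean distance of log2(RPKM + 0.1) after centring, for the 5 genes whose mean reached 0.5 RPKM. Tbx20 lay nearest to Il4ra (0.41), Bdnf (0.46) and Loxl3 (0.49), and Foxc1 to Zfp503 (0.46), Ptges (0.57) and Mylpf (0.57). Foxf1a lay nearest to Tcp11l2 (0.51), Cdyl2 (0.51) and Errfi1 (0.54), and Msx1 to Iqcg (0.48), Ccl27a (0.48) and Arsg (0.49). Hand1 had no close neighbour, with Vim (0.85), Id3 (0.86) and Pmp22 (0.89) the nearest. Vim, the intermediate filament of mesenchymal cells, was at 87.1, 52.2 and 107 RPKM on Day0 and 17.2, 14.5 and 30.9 RPKM on Day3. These are descriptions over 6 libraries.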

How the data were processed

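RNA-Seq was made from poly(A) RNA of 6 libraries, 1 per condition, with the Illumina TruSeq kit. The authors mapped the reads, which were single-end, on the mm9 build by TopHat (1.14 in the submitters' processing notes) and Bowtie 0.12.7, allowing 2 mismatches and 20 locations, and deposited gene-level RPKM computed in Cufflinks 1.3.0. The log2 ratios that the authors deposited in the same table hold their own comparisons and were not used. Starts in the table count from 0 and were raised by 1. Transcripts come from GENCODE vM1 on NCBIM37.

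Log2 ratios were taken of RPKM + 0.001, and a gene was called changed past 1.5-fold. Shares are over entries above 0 in either library. Differences between 2 libraries were not tested. The day effect was tested with limma 3.58.1 (R 4.3.3), line as block, adjusted by Benjamini-Hochberg over 18688 entries above 0 in any library, which was added after the values had been seen. The 9 genes and the gene lists were chosen with earlier results of these data known. The genes named from a list were chosen among the 4 with the largest log2 ratio at a pseudocount of 1 RPKM in the comparison described and the one with the highest mean, and not all of these are named. Further ones, such as Mesp1, Actg2, Foxc2, Foxf2, Zfpm1, Msx2, and Elf5, were named after their values were seen.

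The files give no read counts. Depth was estimated from the RPKM values of 3696 genes with 1 annotated transcript over 1500 bases, by the library size at which low values are nearest to whole reads, with 5 transcript length settings. Because the result for 1 library doubled between settings, a second estimator, the mode of the lowest values, was tried after those values had been seen, with 2 settings. Over these 7 settings, the only ones tried, the estimates for a library differed by up to 3.09 times. None was adopted, the depth is treated as unknown, and no read numbers, counting intervals or floors are given. Python 3 scripts used numpy and pandas.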

Additional observations from a re-analysis of the deposited data

Results flagged for a closer look

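Results for 2 genes went past 1.5-fold in opposite directions under the same contrast on the 2 days. Hand1 was lower in H2AZ-AP3 than in H2AZ WT on Day0 (0.994 against 1.75 RPKM) and higher on Day3 (0.292 against 0.0922 RPKM), so that its log2 ratio differed by 2.47 between days. Nkx2-5 was lower in H2AZ-AP3 than in the library labelled H2AZ KD on Day0 (0.28 against 0.636 RPKM) and higher on Day3 (0.385 against 0.127 RPKM), a difference of 2.77. With a pseudocount of 1 RPKM none of these 4 ratios passed 1.5-fold: Hand1 had log2 ratios of -0.47 and 0.24 and Nkx2-5 of -0.35 and 0.30. Neither difference was tested, since each value is 1 library. With 1 library per condition, no library could be examined as an outlier of its group.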

How the results depend on the processing

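No paired analysis was possible because each group has replicate number 1 alone, as far as replicate numbers go. Pairing by line instead, the limma day effect gave 4 lower genes, 4 with a pseudocount of 0.1, 1 with a pseudocount of 1, and 0 to 0 leaving out each line, where 1 residual degree of freedom let no entry pass. With a pseudocount of 1 RPKM few of the 9 genes stayed past 1.5-fold: against H2AZ WT, 1 higher and 0 lower in H2AZ-AP3 on Day0, 0 and 0 on Day3, and in H2AZ KD 1 lower on Day0 and 0 higher and 0 lower on Day3. Against H2AZ KD, 2 were higher and 0 lower in H2AZ-AP3 on Day0, and 0 higher on Day3. From Day0 to Day3, 3 were lower in H2AZ WT, 1 in H2AZ KD and 4 in H2AZ-AP3, where 0 were higher. With a pseudocount of 0.1 RPKM, H2AZ-AP3 had 1 higher and 1 lower on Day3 against H2AZ WT. Against H2AZ KD it had 4 higher and 1 lower on Day0. From Day0 to Day3 it had 1 higher, and the lower genes stayed lower. Where 1 of the 2 libraries had to reach 1 RPKM, fewer genes were left. H2AZ-AP3 against H2AZ WT had 2 higher and 1 lower of 4 left on Day0 and 0 higher and 1 lower of 1 on Day3. H2AZ KD against H2AZ WT had 2 lower of 2 on Day0 and 0 higher and 1 lower of 1 on Day3. H2AZ-AP3 against H2AZ KD had 3 higher and 0 lower of 3 on Day0. Between days, 2 of 3 left were lower in H2AZ WT, and 0 higher and 3 lower of 3 in H2AZ-AP3. The filter left none of the 9 genes in H2AZ-AP3 against H2AZ KD on Day3 or between days in H2AZ KD, so it gives no value there. Past 2-fold, H2AZ-AP3 had 1 higher and 3 lower on Day0 and 1 higher and 1 lower on Day3 against H2AZ WT. H2AZ KD had 0 higher and 2 lower on Day0 and 1 higher and 2 lower on Day3. H2AZ-AP3 had 2 higher and 1 lower against H2AZ KD on Day0. From Day0 to Day3 in H2AZ-AP3, 1 was higher, and the lower genes stayed lower. Centring on the median ratio made Zfpm2 the second gene higher in H2AZ KD on Day3, 2 in place of 1. Summing entries of a symbol could not move the 9 genes, which have 1 entry each, and none of these alternatives could turn the direction of a called ratio. Of 51 calls among 81 ratios, 39 were lost with a pseudocount of 1 and 9 with 0.1. The changed entries per comparison numbered 4255 to 6711, 467 to 2232 with a pseudocount of 1, 2560 to 4992 with 0.1, 968 to 2964 with the filter and 2698 to 4290 past 2-fold.

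The estimated depth for H2AZ-AP3 on Day3 was 42.2 M reads with whole transcript lengths and 21.9 M with lengths shortened for 200-base fragments. For H2AZ-AP3 on Day0 it was 28.1 M by whole multiples and 10 M, the edge of the range searched, by the lowest mode, and for H2AZ WT on Day3 it was 19.9 and 10 M. The planned read numbers behind each gene were therefore not given. Counting error is largest for genes as low as these, and it cannot be told apart from differences between cultures.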
